A study of Homo sapiens with 6 samples.

Results

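The noncanonical WNT and planar polarity genes are 10 genes, *WNT5A*, *WNT5B*, *WNT11*, *ROR1*, *ROR2*, *RYK*, *PTK7*, *VANGL1*, *VANGL2* and *CELSR1*, picked by their symbols among the 20347 gene symbols of an RNA-seq table. All 10 are in the table. The RNA came from PaTu8988t, a human cell line of pancreatic ductal adenocarcinoma (PDAC), with no drug or other treatment named in the labels. The control group holds 3 replicates of cells that received a CRISPR/Cas9 vector with an unspecific guide RNA. The SAMD1 KO group holds 3 libraries, each from a different clone that was derived from selected single cells after CRISPR/Cas9 editing of *SAMD1* with the same type of vector, so the replicate number of a KO library names a clone. *SAMD1* encodes a protein that binds CpG islands and represses the genes there, and the comparison asks which genes change when it is lost.

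WNT proteins are secreted lipid-modified ligands. The branch described here does not work through stabilized beta-catenin. WNT5A, WNT5B and WNT11 instead bind Frizzled receptors together with the co-receptors ROR1, ROR2, RYK or PTK7, and signal to small GTPases, kinases and calcium. The core planar polarity proteins VANGL1, VANGL2 and CELSR1 sit in the cell membrane and orient cells within a sheet, and this branch is known for its part in directed cell movement during development and in cancer.

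Library depth, taken from the smallest step between values, lay between 35589477 and 45172216 reads. For clone 1 this step (0.989) is so near 1 that its whole reads were not accepted as recovered, and its read numbers are given with that doubt. The targeted gene *SAMD1* averaged 2304 ± 76.1 normalized counts over the control libraries and 927 ± 136 over the clones (SD, n = 3 each). Replicate libraries of a group differed beyond sampling noise, by a chi-square per gene of 2.66 to 5.22 between control pairs and of 50.4 to 58.1 between clone pairs, so the clones were much less alike than the control replicates. Of the markers of an epithelial cell, *KRT8* and *KRT18* were high (29200.3 normalized counts or more in each library), *EPCAM* lay between 422 and 626, *CDH1* between 24.0 and 45.8, and *KRT19* was listed at 0 in each library. The 6 epithelial markers summed to between 62727 and 65936 in control libraries and between 67655 and 108596 in the clones. The 6 fibroblast markers summed to between 56.7 and 58.4 in control libraries and between 33.3 and 59.6 in the clones. The 4 endothelial ones summed to between 80.1 and 85.9 in control and between 35.6 and 85.4 in the clones. For the 5 leukocyte ones the sums were 357 to 377 in control and 251 to 334 in the clones. *DCN*, *CD3E* and *MS4A1* were at 0. Of the markers, *KRT7*, *KRT18* and the fibroblast gene *PDGFRA* were called higher by the rule given next. *PDGFRA* held from 3.44 to 4.58 in control and from 14.7 to 23.7 in the clones, and passed the count filter only through the clones. Lower at an unadjusted p below 0.05 in limma were 1 of 2 tested fibroblast markers, 1 of 3 endothelial and 1 of 1 leukocyte. The part of these genes in the results that follow was not tested. Since whole cultures were measured, fewer cells with a transcript and less transcript per cell cannot be told apart.

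The groups were set against each other with limma, on the log2 of the normalized count plus 1, for 12773 genes that averaged at least 10 normalized counts, and a gene was called when its log2 fold change lay beyond 0.5 with an unadjusted p below 0.01. Adjusted p-values are Benjamini-Hochberg values of limma over these genes. Of the 10 members, 8 passed the count filter, and *WNT11* and *ROR2* did not. In SAMD1 KO cells 2 members, *WNT5A* and *CELSR1*, were called higher, where 5.77% of all tested genes were. None of the members was called lower (0 of 8 tested by limma, with 3 of them lower at an unadjusted p below 0.05, and 1, *ROR1*, called lower by edgeR and DESeq2 when clone 1 was left out), where 2.08% of all tested genes were. The control and KO libraries did not overlap in 5 of the 8 tested members and in *WNT11*, compared with 37.8% of all tested genes. The median log2 fold change of the 8 tested members was −0.14, and that of all tested genes −0.0059.

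**Figure D1:**
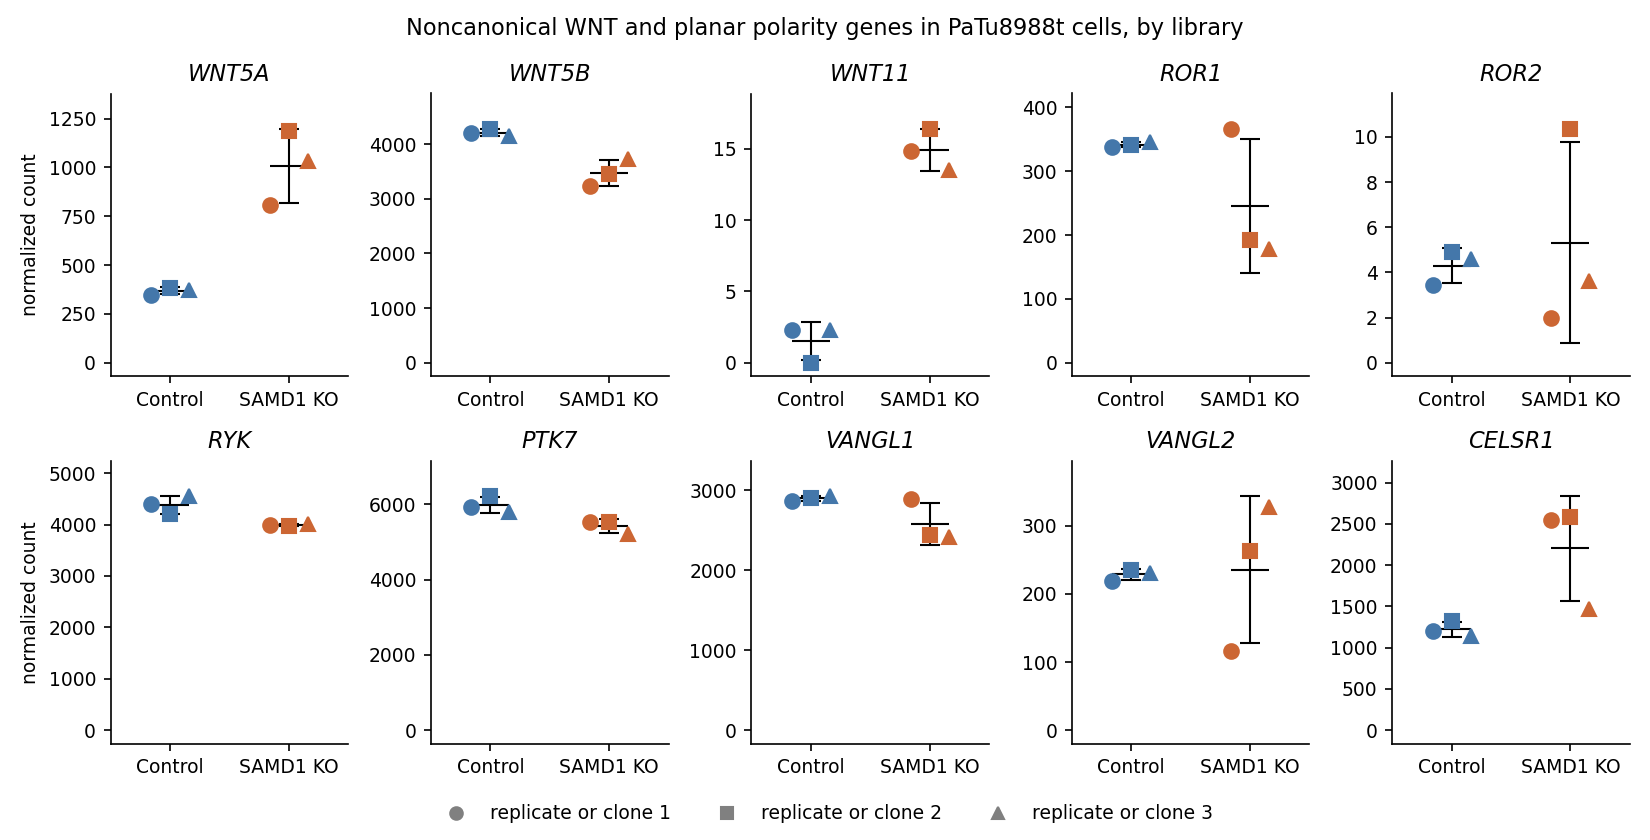
Normalized count of each member (vertical axes, each with its own scale) in the 3 control libraries (blue) and the 3 SAMD1 KO clones (orange). Bars are the mean ± SD and the marker is a circle, square or triangle for replicate or clone 1, 2 or 3. *WNT5A* and *WNT11* are higher in each clone, *CELSR1* is raised less in clone 3, and *ROR1* and *VANGL2* differ between clones more than between groups.

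Among the ligands, *WNT5A* (ENSG00000114251, chromosome 3, 55465715 to 55490539, minus strand, GRCh38) rose. WNT5A is the best-known ligand of this branch and is also linked to migration and to epithelial-mesenchymal transition. Its normalized counts were 348, 383 and 373 in control replicates 1 to 3 and 809, 1185 and 1033 in clones 1 to 3. Each clone lay above each control library, with 2.20, 3.22 and 2.81 times the control mean. This is a log2 fold change of 1.44 with a standard error of 0.14 (limma adjusted p = 0.00147). Leaving out any one library gave values from 1.31 to 1.59. The 40 neighbouring tested genes were shifted by a median of 0.22, 0.26 and 0.030 (log2) in clones 1 to 3 against the control mean, and with this regional shift removed the log2 fold change was 1.26. *WNT5A* and *WNT11* are among the EMT-related genes that the study picked on these same libraries, so their rise is not independent evidence.

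*WNT5B* (ENSG00000111186, chromosome 12, 1529891 to 1647212, plus strand), the closest relative of *WNT5A* in sequence, went the other way by a small amount. Its control libraries held 4197, 4283 and 4151 normalized counts and its clones 3234, 3454 and 3723. The groups did not overlap, and clone 3 lay nearest to control. The log2 fold change of −0.28 (95% confidence interval −0.43 to −0.13, standard error 0.063, limma adjusted p = 0.0296) corresponds to a difference in mean level of −17.6% and is inside the cut-off of 0.5. With 1 library left out, the limma adjusted p was between 0.0103 and 0.0481 in the 3 fits without a clone and between 0.114 and 0.131 in the 3 without a control replicate. *FBXL14*, a protein-coding gene on the opposite strand, overlaps the annotated extent of *WNT5B*. It held 162 ± 20.5 normalized counts in control and 179 ± 24.4 in KO cells (SD, n = 3 each, limma adjusted p = 0.587), a small level beside that of *WNT5B*.

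RefSeq (GRCh38.p14) lists 12 promoters for 8 of the 10 members, and has no entry here for *WNT11* and *CELSR1*. SAMD1 is known to prefer the motif GCGC, which reads the same on both strands, so the 250 bases before each start were searched for it. Overlapping matches were counted separately. The promoters of the paralogs *WNT5A* and *WNT5B* are printed because these genes differed in direction, with 2 starts listed for each and GCGC in capitals.
WNT5A start 1, chr3:55487307-55487556, minus strand: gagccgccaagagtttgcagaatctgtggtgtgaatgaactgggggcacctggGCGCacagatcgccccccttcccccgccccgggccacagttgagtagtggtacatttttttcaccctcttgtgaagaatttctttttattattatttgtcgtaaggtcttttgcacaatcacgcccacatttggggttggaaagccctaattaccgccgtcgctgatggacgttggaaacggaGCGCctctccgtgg
WNT5A start 2, chr3:55481399-55481648, minus strand: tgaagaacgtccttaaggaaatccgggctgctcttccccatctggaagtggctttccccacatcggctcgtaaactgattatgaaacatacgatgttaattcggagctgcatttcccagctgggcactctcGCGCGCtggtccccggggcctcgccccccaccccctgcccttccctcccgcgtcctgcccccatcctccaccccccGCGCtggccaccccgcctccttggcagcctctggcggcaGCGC
WNT5B start 1, chr12:1616806-1617055, plus strand: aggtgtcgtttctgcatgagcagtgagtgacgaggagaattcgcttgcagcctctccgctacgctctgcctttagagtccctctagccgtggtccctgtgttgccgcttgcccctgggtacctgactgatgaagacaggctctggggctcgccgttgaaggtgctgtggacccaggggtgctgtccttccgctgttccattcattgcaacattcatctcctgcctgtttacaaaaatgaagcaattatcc
WNT5B start 2, chr12:1628981-1629230, plus strand: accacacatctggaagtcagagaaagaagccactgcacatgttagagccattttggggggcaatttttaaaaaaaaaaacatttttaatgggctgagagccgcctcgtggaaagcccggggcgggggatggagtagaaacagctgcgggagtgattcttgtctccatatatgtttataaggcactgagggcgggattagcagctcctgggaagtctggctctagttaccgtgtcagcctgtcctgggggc
The *WNT5A* windows held 2 and 4 matches and the *WNT5B* windows 0 and 0. The windows of both genes lie inside the annotated extents given above. The bases before the outermost annotated starts (55490539 for *WNT5A* and 1529891 for *WNT5B*) were not searched. Each of the other 8 windows held between 2 matches (*VANGL2*) and 8 (*ROR2*), and these genes include no called member. Of the 35116 promoters in the table, 53.4% held at least 1 match. The letters describe these windows only, binding of SAMD1 was not analysed here, and gene counts do not show which start was used.

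*WNT11* (ENSG00000085741, chromosome 11, 76186325 to 76210736, minus strand), a ligand known for cell movements in gastrulation, was near the detection limit. The control libraries held 2, 0 and 2 reads and the clones 15, 19 and 15 reads, which are 2.29, 0 and 2.29 against 14.8, 16.4 and 13.5 normalized counts. The groups did not overlap. The ratio of KO to control was 10.3, with an exact 95% interval of 3.79 to 39.5 that covers counting error only. Without clone 1, whose read number is in doubt, the ratio was 10.4 (3.70 to 40.2). In a limma fit with no count filter, *WNT11* was called higher (adjusted p = 0.0133), and its log2 value there depends on the pseudocount, moving from 2.84 to 1.12 with a pseudocount of 10 and to 4.17 with 0.1.

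Levels of different genes were compared per kilobase of annotated exon. On this scale *WNT5B* was the most abundant of the 10 members in both groups, with 993 ± 15.7 in control and 819 ± 57.7 in KO cells (SD, n = 3 each). *WNT5A* stood at 51.4 ± 2.52 and 141 ± 26.5, and *WNT11* at 0.644 ± 0.557 and 6.29 ± 0.617. The ratio of *WNT5B* to *WNT5A* was therefore 20.4, 18.9 and 18.8 in control replicates 1 to 3, while the clones gave 6.75, 4.92 and 6.08. *WNT5A* made up between 4.68% and 5.06% of the summed level of the 3 ligands in control libraries and 12.8%, 16.8% and 14.0% in clones 1 to 3. The sum of the 3 ligands per kilobase was 1045 ± 16.4 in control and 966 ± 75.3 in KO cells (SD, n = 3 each), and the groups did not overlap. With 3 libraries a group the smallest p of an exact permutation test is 0.1, and no other test of these ratios was run.

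**Figure D2:**
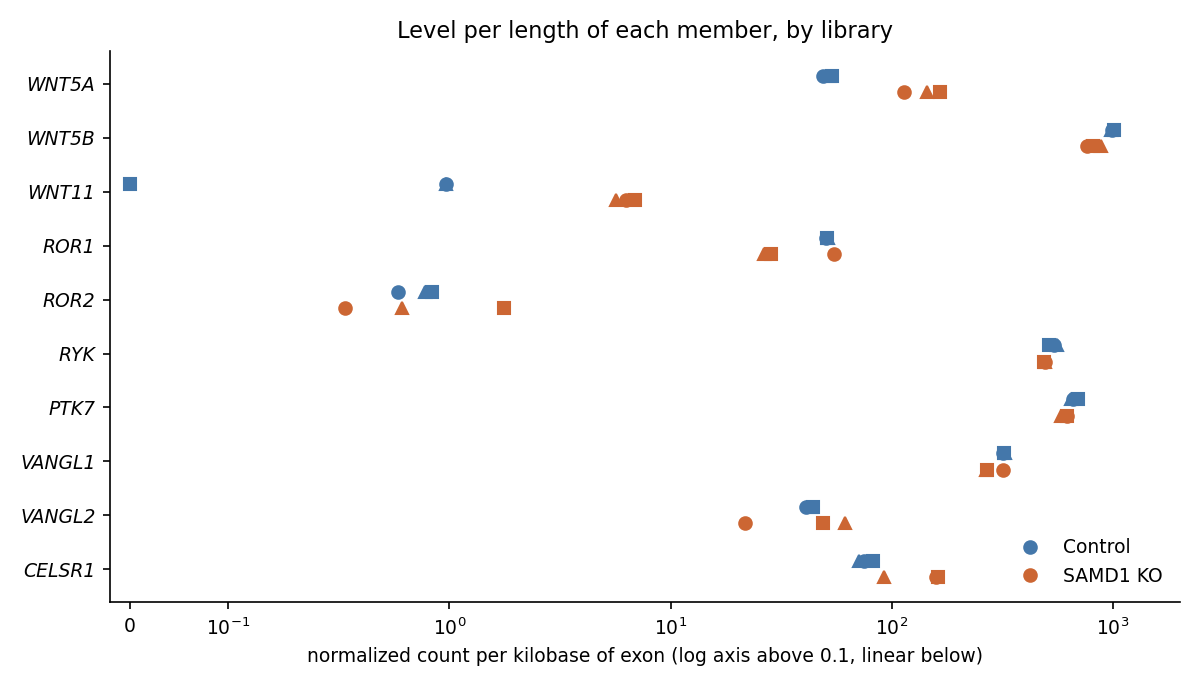
Normalized count per kilobase of exon (horizontal, logarithmic above 0.1) of each member in control (blue) and SAMD1 KO (orange) libraries, with a circle, square or triangle for replicate or clone 1, 2 or 3. *WNT5B*, *PTK7*, *RYK* and *VANGL1* lie above 250 in each library, while *WNT11* and *ROR2* lie below 7.

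The order of mean control levels per kilobase was *WNT5B* (993), *PTK7* (666 ± 23.6), *RYK* (537 ± 21.9), *VANGL1* (320.4 ± 3.40), *CELSR1* (76.1 ± 5.81), *WNT5A* (51.4 ± 2.52), *ROR1* (50.9 ± 0.568), *VANGL2* (42.7 ± 1.49), *ROR2* (0.732 ± 0.131) and *WNT11* (0.644 ± 0.557; SD, n = 3 each). *WNT5A* and *ROR1*, and *ROR2* and *WNT11*, were the neighbours in this order that did not differ beyond their spread. In KO cells the mean of *WNT5A* (141 ± 26.5) lay next to that of *CELSR1* (137 ± 39.4), and that of *VANGL2* (44.0 ± 20.2) next to that of *ROR1* (36.6 ± 15.7), and neither pair differed beyond its spread.

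The receptors fell into an abundant pair and a scarce pair. *RYK* (ENSG00000163785, chromosome 3, 134065303 to 134250859, minus strand) encodes a WNT receptor with an inactive kinase domain. It had 4395, 4196 and 4553 normalized counts in control and 3996, 3974 and 4018 in the clones. The clones were close to each other, and all lay below control. Its log2 fold change was −0.13 (standard error 0.051, 95% confidence interval −0.25 to −0.012, limma adjusted p = 0.137).
*PTK7* (ENSG00000112655, chromosome 6, 43076307 to 43161719, plus strand), another receptor with an inactive kinase domain and a known planar polarity gene, had 5923, 6223 and 5812 normalized counts in control and 5544, 5538 and 5205 in the clones. These groups did not overlap either. The log2 fold change was −0.14 (standard error 0.053, 95% confidence interval −0.27 to −0.016, limma adjusted p = 0.131). For both genes the interval lay within the cut-off of 0.5.

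*ROR1* (ENSG00000185483, chromosome 1, 63774017 to 64181498, plus strand) encodes a receptor of WNT5A that is known as an oncofetal surface protein in several cancers. Its normalized counts were 339, 340.5 and 346 for control replicates 1 to 3 but 367, 192 and 178 for clones 1 to 3. Clone 1 lay just above the control libraries, and clones 2 and 3 stood at 0.561 and 0.521 times the control mean. The exact 95% counting intervals of clone 2 (167 to 219) and clone 3 (154 to 205) did not reach the control libraries. Over all 6 libraries the log2 fold change of −0.55 (standard error 0.26, 95% confidence interval −1.16 to 0.054) was not called (limma adjusted p = 0.203). Without clone 1 it was −0.88 and called lower (limma adjusted p = 0.00302). Its 40 neighbouring genes had median log2 differences between −0.033 and 0.042 in the 3 clones. The range of *ROR1* among the clones, 1.04 on the log2 scale, was reached by 7.33% of all tested genes.

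*ROR2* (ENSG00000169071, chromosome 9, 91563091 to 91950228, minus strand), the second ROR receptor, was near the detection limit, with 3, 5 and 4 control reads and 2, 12 and 4 reads from clones 1 to 3. Only clone 2 stood above the controls. The ratio of KO to control was 1.27, with an exact 95% interval of 0.577 to 2.88 for counting error, and without clone 1, whose read number is in doubt, it was 1.63 (0.722 to 3.77), so a difference was not detectable at this depth. Summed per kilobase, the 4 receptors reached 1255 ± 5.23 in control and 1131 ± 31.5 in KO cells (SD, n = 3 each), and *ROR1* made up from 4.03% to 4.10% of this sum in control libraries and 4.70%, 2.52% and 2.41% in clones 1 to 3. The ratio of ligand *WNT5A* to receptor *ROR1* per kilobase was 0.965, 1.06 and 1.01 in control replicates 1 to 3 against 2.07, 5.80 and 5.45 in clones 1 to 3. Each clone was thus above control in this ratio, clone 1 least.

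Of the planar polarity genes, *CELSR1* (ENSG00000075275, chromosome 22, 46360834 to 46537620, minus strand), an atypical cadherin with a 7-pass membrane domain that joins polarized neighbours, rose. It had 1196, 1324 and 1142 normalized counts in control and 2551, 2585 and 1473 in clones 1 to 3. Clones 1 and 2 stood at 2.09 and 2.12 times the control mean and clone 3 at 1.21 times, and all clones lay above all control libraries. The log2 fold change was 0.81 (standard error 0.21, 95% confidence interval 0.32 to 1.30, limma adjusted p = 0.0461). The call held without clone 3, where the log2 fold change was 1.07 (limma adjusted p = 0.00142), and was lost in the fit without any other single library, with log2 fold changes from 0.67 (without clone 2) to 0.87 (without control replicate 2). Its 40 neighbours had median log2 differences of −0.065, 0.065 and −0.16 in clones 1 to 3, and with the regional shift removed its log2 fold change was 0.86. Per kilobase, *CELSR1* made up 34.2% to 35.8% of the 3 *CELSR* genes in control libraries and 50.5%, 45.6% and 40.2% in the clones.

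*VANGL1* and *VANGL2* encode 4-pass membrane proteins of the core complex that can pair with each other. *VANGL1* (ENSG00000173218, chromosome 1, 115641970 to 115698224, plus strand) had 2867, 2901 and 2928 normalized counts in control and 2886, 2441 and 2419 in the clones. Clone 1 was within the control range and the other two were below it. The log2 fold change was −0.17 (standard error 0.077, 95% confidence interval −0.35 to 0.0097, limma adjusted p = 0.189). Without clone 1 it was −0.25 (limma adjusted p = 0.0153), still inside the cut-off.
*VANGL2* (ENSG00000162738, chromosome 1, 160400564 to 160428670, plus strand) had 219.6, 235 and 231 normalized counts in control and 117, 263 and 327 in the clones. Clone 1 was below and clones 2 and 3 above each control library, so the group means (229 ± 7.97 and 236 ± 108, SD, n = 3 each) were alike while the clones were not. As large a range among the clones was found for 3.10% of all tested genes. The log2 fold change of −0.082 (standard error 0.35, 95% confidence interval −0.90 to 0.73, limma adjusted p = 0.900) turned to 0.36 when clone 1 was left out (limma adjusted p = 0.0971). The ratio of *VANGL1* to *VANGL2* per kilobase lay between 7.31 and 7.73 in control libraries and was 14.6, 5.50 and 4.37 in clones 1 to 3.

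**Figure D3:**
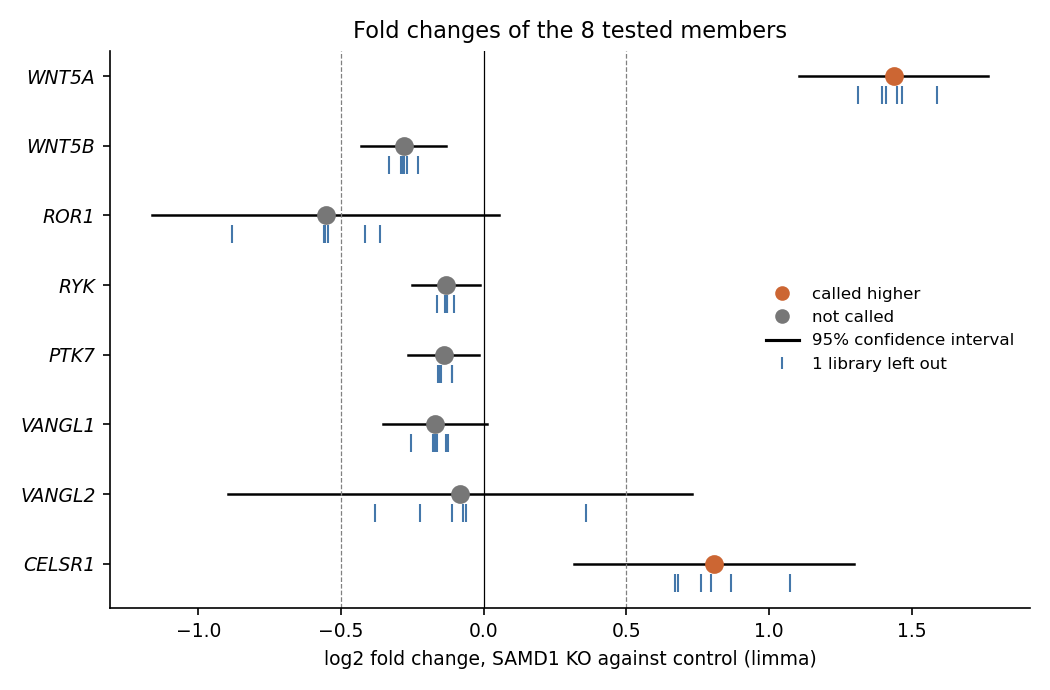
Log2 fold change of the 8 tested members (horizontal), SAMD1 KO against control. Circles are the limma estimates, black lines their 95% confidence intervals, blue ticks the 6 estimates with 1 library left out, and dashed lines the cut-off of 0.5. *WNT5A* stays beyond the cut-off in all estimates, *ROR1* and *VANGL2* spread widely, and *RYK*, *PTK7* and *WNT5B* lie close to 0 with narrow intervals.

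The clones thus shared a direction for some members but not 1 pattern across all of them. Each clone lay above each control library for *WNT5A*, *WNT11* and *CELSR1*, and below each for *WNT5B*, *RYK* and *PTK7*. Clone 1 had the smallest rise of *WNT5A*, control-like *ROR1* and *VANGL1*, and the lowest *VANGL2*. Clones 2 and 3 had lower *ROR1* and *VANGL1* and higher *VANGL2* than control, and differed from each other in *CELSR1*. Among the 8 tested members *RYK* varied least over the clones, with a coefficient of variation of 0.547%, and *ROR1* (42.9%) and *VANGL2* (45.8%) varied most.

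Other genes of the pathway were taken from lists chosen with earlier results of these data known. Over all tested genes limma called 5.77% higher and 2.08% lower. Lists chosen in this way cannot show an excess over these shares. Among 13 tested core partners of planar polarity, 3 were called higher and 0 lower by limma (0 also lower at an unadjusted p below 0.05, and 0 with edgeR and DESeq2 on 5 libraries), with a median log2 fold change of 0.15. *FZD3*, a Frizzled receptor of the planar polarity complex, rose from a control mean of 1823 ± 41.2 to 2977 ± 353 normalized counts (SD, n = 3 each, log2 fold change 0.70, limma adjusted p = 0.00365), and was called whichever library was left out (6 of 6 fits). *PRICKLE1*, a cytoplasmic partner of the VANGL proteins, rose from 138 ± 4.90 to 220.05 ± 41.6 (0.65, limma adjusted p = 0.0357) and was called in 3 of these fits. *PRICKLE3* rose from 445 ± 9.46 to 683 ± 61.7 (0.61, limma adjusted p = 0.00705) and was called in 6 of 6 of these fits (0.56 to 0.69). However, its log2 fold change was 0.19 once the shift of its neighbours was removed. The list's other genes, among them *FZD6*, *SCRIB* and the *DVL* genes for the Dishevelled adaptors, were not called.

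Of 11 tested other ligands, Frizzled receptors and co-receptors, 4 were called higher and 1 lower (median log2 fold change 0.21), with 5 higher and 2 lower at an unadjusted p below 0.05. *MCAM*, a cell adhesion molecule that serves as a co-receptor for WNT5A, was the called gene that fell, with 9089 ± 219.9 normalized counts in control and 4511 ± 629 in the clones (SD, n = 3 each, log2 fold change −1.02, limma adjusted p = 0.00121). It fell in each clone, to 5237, 4130 and 4166. The ligand gene *WNT4*, named after its values were seen, just missed the cut-off (log2 fold change −1.99, unadjusted p of 0.0101 and adjusted p of 0.0646 in limma), with 29.7, 23.5 and 30.9 normalized counts in control and 4.94, 2.59 and 17.1 in clones 1 to 3. The receptor gene *FZD8*, also named afterwards, missed it in the other direction (0.79, unadjusted p of 0.0117 and adjusted p of 0.0708 in limma). Its counts were 143, 136 and 159 in control and 173, 280 and 334 in clones 1 to 3. On 5 libraries edgeR and DESeq2 each called 5 genes of this list higher, *FZD8* among them, and 1 lower, *MCAM*. These libraries leave out clone 1, where *FZD8* rose least, and limma without clone 1 also called 5 higher and 1 lower. Neither called *WNT4*. *FZD7* rose from 210.1 ± 20.1 to 363 ± 41.5 (0.78, limma adjusted p = 0.00963) and *FZD1* from 379 ± 17.7 to 545 ± 70.1 (0.52, adjusted p = 0.0268), both Frizzled receptors.
*CTHRC1*, a secreted glycoprotein that favours the binding of WNT ligands to ROR2 and Frizzled, rose from 82.0 ± 0.699 to 163 ± 32.8 (0.97, limma adjusted p = 0.0151). *GPC4*, a cell-surface proteoglycan that binds WNT ligands, rose from 715 ± 12.5 to 1249 ± 355 (0.77, limma adjusted p = 0.0317). The calls of *MCAM*, *FZD7* and *CTHRC1* held in 6 of 6 fits without 1 library, that of *FZD1* in 4 and that of *GPC4* in 3, and with the shift of their neighbours removed *FZD1* (0.498) and *GPC4* (0.49) were under the cut-off.

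Of 19 tested effectors of planar polarity, 1 was called higher and 0 lower by limma, with a median log2 fold change of 0.11. At an unadjusted p below 0.05, 3 were higher and 3 lower in limma. On 5 libraries edgeR called 2 higher, DESeq2 called 1 higher, and both called 0 lower. Genes encoding the GTPases RAC1 and CDC42 and for the formin DAAM1 were not called. Of 17 tested genes of the calcium branch, 1 was called higher and 0 lower by limma, with a median of 0.0099. At an unadjusted p below 0.05, 4 were higher and 3 lower in limma. On 5 libraries edgeR and DESeq2 both called *NFATC2* lower, and DESeq2 called *NFATC1* and *PRKCA* higher. For both lists the share called higher by limma was near the 5.77% of all tested genes. The calcium gene called higher by limma, *CAMK2B*, a subunit of a calcium-dependent kinase, averaged 22.9 ± 10.9 in control and 52.8 ± 9.91 in KO cells (SD, n = 3 each, adjusted p of limma = 0.0639). It was called in 1 of 6 fits with 1 library left out, and by neither edgeR nor DESeq2 on 5 libraries. Of 5 tested genes of the Fat-Dachsous branch, 0 were called by limma, with 1 higher and 1 lower at an unadjusted p below 0.05. On 5 libraries edgeR called 1 of them higher (*DCHS2*, a giant cadherin) and DESeq2 called 1 lower (*FJX1*, a kinase of the secretory pathway), and limma called 1 lower without clone 2.
For comparison, 8 tested targets of the beta-catenin branch held 4 genes called higher (*LEF1*, *NKD1*, *NOTUM* and *AXIN2*) and 0 called lower by limma (0 also at an unadjusted p below 0.05, or by edgeR or DESeq2 on 5 libraries), with a median log2 fold change of 0.96. Each of the 4 was called in 6 of 6 fits without 1 library, with log2 fold changes of 1.10, 1.03, 1.11 and 1.24. No test compared the lists with each other.

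**Figure D4:**
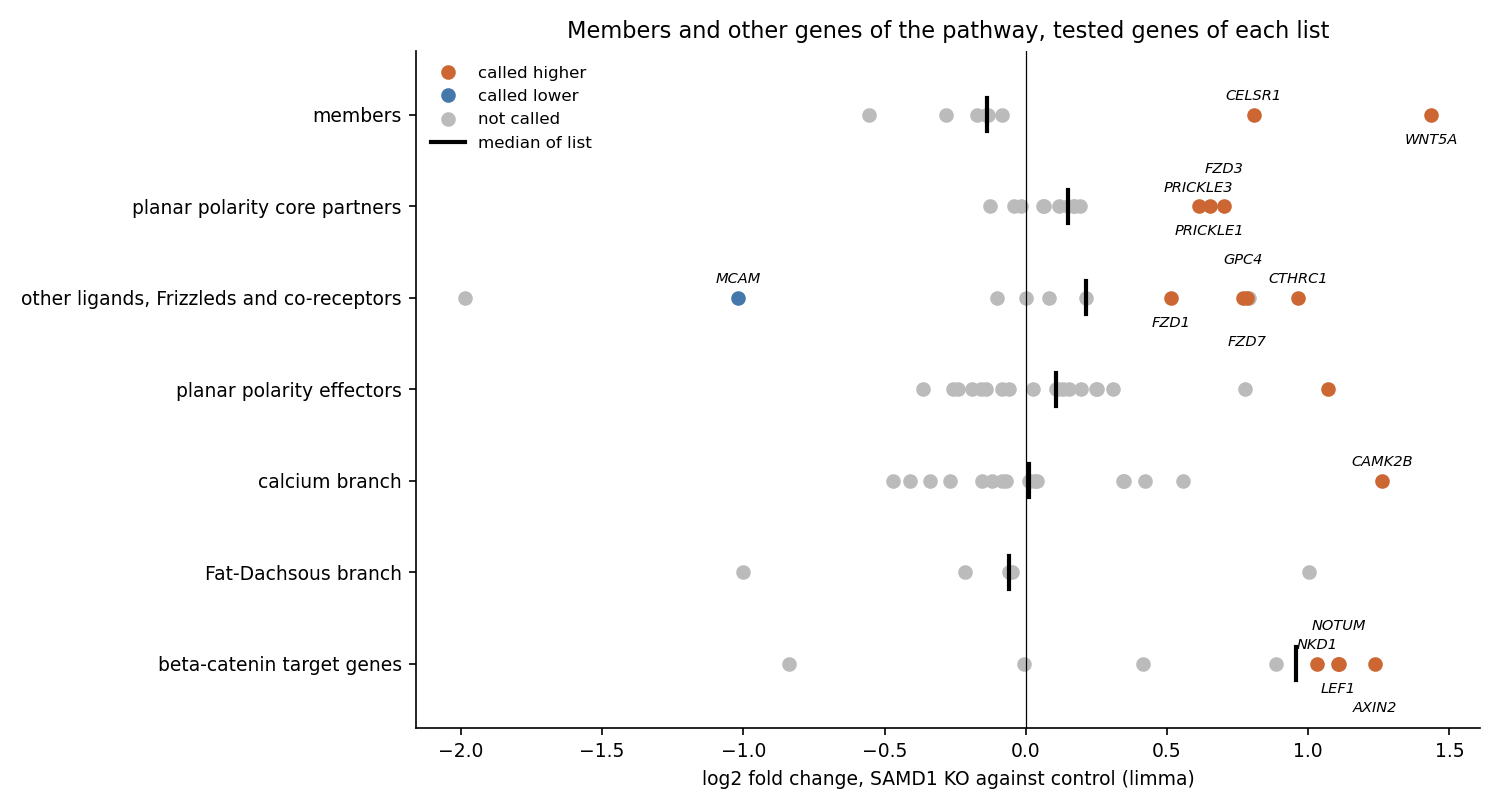
Log2 fold change (horizontal), SAMD1 KO against control, of each tested gene in the member list and 6 lists of other pathway genes. Orange points were called higher, blue lower and grey not called, and the black bar is the median of the list. *MCAM* is the only gene of these lists called lower by limma with all 6 libraries, and the effector and calcium lists lie mostly around 0.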

How the data were processed

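RNA-seq was measured in 6 libraries of PaTu8988t cells, 3 control and 3 SAMD1 KO, grouped by their labels. The authors mapped reads with RNA-STAR against GenCode 43. The submitters' processing notes name featureCounts, DESeq2 and the build hg38, and the paper's methods name DESeq2. The deposited signal is a normalized count per gene, scaled by the authors with 1 factor per library. The library kit (TruSeq Stranded mRNA) keeps strand, but whether counting used it is not given in the sources used here, so reads of overlapping antisense genes may not be told apart. All values (100%) of a library could be written as whole multiples of 1 step within 0.01, which gave the read totals. The authors' DESeq2 table of fold changes and p-values was not used, and 0 sample columns were left unused.

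Groups were compared in R 4.3.3 with limma 3.58.1 (lmFit, then eBayes with a mean trend) on the log2 of normalized count plus 1, keeping genes with a mean of at least 10, and with the cut-off of the study (log2 fold change beyond 0.5, unadjusted p below 0.01). All tests were two-sided. The Benjamini-Hochberg adjustment took in all tested genes. Positions and exon lengths are from GENCODE 44 on GRCh38. The regional shift of a gene is the median log2 difference of up to 40 neighbouring tested genes in each library. Intervals of reads are exact (95%) and cover counting error only. The members and lists were chosen with earlier results of these data known. All members are named, and of each pathway list the called genes, up to 6 by p. The called gene of the effector list is not reported here.

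Each fit was repeated with a pseudocount of 0.1 or 10, with no count filter or a mean of at least 50, rescaling to a common 75th percentile, a block for the replicate number, the removal of 1 library at a time, an adjusted p below 0.05 in the cut-off and removal of regional shifts. After the data were examined, the quasi-likelihood test of edgeR 4.0.16 and a DESeq2 1.42.0 fit to the reads of the 5 libraries other than SAMD1 KO clone 1 were added, with fits of the lists without 1 library. The main limma fit and the edgeR and DESeq2 fits on 5 libraries were also run on simulated counts. These had the same spread in both groups, so they cannot show how the fits behave where clones vary more than controls. The other repeated fits were not simulated. Tables were made with Python 3.11.15, pandas 2.3.3, numpy 2.4.6 and SciPy 1.17.1.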

Additional observations from a re-analysis of the deposited data

How the results depend on the processing

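*WNT5A* was called higher under each of the 15 alternatives to its fit, with log2 fold changes from 1.26 to 1.60. The number of members called higher (2) was between 1 and 2 when 1 library was left out and 1 with edgeR on the 5 libraries without SAMD1 KO clone 1, since *CELSR1* was then not called (adjusted p = 0.0625), while DESeq2 on the same libraries called it (adjusted p = 0.00499) and gave 2. Over all its alternatives, the adjusted p of *CELSR1* ran from 0.00142 to 0.165. The number called lower (0) was between 0 and 1 when 1 library was left out, and 1 with edgeR and 1 with DESeq2 on those 5 libraries, the called gene being *ROR1* in each case. *VANGL2* (−0.082) lay between −0.38 and 0.36 when 1 library was left out, the 0.36 being limma without clone 1. On the same 5 libraries it was 0.37 in edgeR and 0.37 in DESeq2. *ROR1* was likewise −0.88 in limma without clone 1, −0.88 in edgeR and −0.88 in DESeq2. The cause of these changes was not tested. Over all genes, 568 to 904 were called higher and 180 to 370 lower under the alternatives, all within 1.5 times the 737 and 266 reported.

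edgeR and DESeq2 were not run on all 6 libraries, because whole reads were not accepted as recovered for clone 1, whose step of 0.989 lies near 1. With the replicate number as a block, 725 genes were called higher and 259 lower, and members higher and lower numbered 2 and 0. The labels do not say whether equal numbers pair the samples, and a pairing was not tested. The correlations of deviations from the group means were 0.039, 0.13 and 0.032 for equal numbers. For unequal numbers they ran from −0.074 to 0.036. Control replicates 1 and 2 correlated best with the clone of equal number, and control replicate 3 with clone 1 (0.036). Depth limits *WNT11* and *ROR2*, which had under 20 reads in each library. The labels do not say whether the control replicates were separate cultures, so p-values measure the spread between these libraries, which for control may be technical.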
